A study of Mus musculus with 36 samples.

Results

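The genes described here are 10 genes of inhibitory neurons, *Gad1*, *Gad2*, *Slc32a1*, *Sst*, *Pvalb*, *Vip*, *Npy*, *Reln*, *Lhx6* and *Calb2*. They were taken by gene name from the deposited count files, out of 55450 annotated genes at 1 month, 53379 at 2 months and 54146 at 3 months. All 10 passed the filter on low counts at each age. The libraries are RNA-seq of 2 brain regions of *Tpp1*-/- mice, a model of classical late infantile neuronal ceroid lipofuscinosis, and of sibling controls at 1, 2 and 3 months, with 3 mice per group, 12 groups and 36 libraries. The labels do not say whether the same replicate number in the 2 regions marks the same mouse. The regions were the cerebellum (Cb) and a joint sample of forebrain and midbrain (F/M). *Tpp1*-/- mice carry a targeted allele of the gene for the lysosomal protease tripeptidyl peptidase 1 on both chromosomes and were bred from *Tpp1*+/- parents. Controls were wt, except that the control with replicate number 3 at 1 month was *Tpp1*+/- in each region. Every group of 2 months was male, whereas the groups of 1 and 3 months each held 2 males and 1 female. The question put to the 10 genes was whether their mRNA differed between *Tpp1*-/- and control mice in either region at any of the 3 ages.

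GABA, the main inhibitory transmitter of the brain, is made from glutamate by the decarboxylases encoded by *Gad1* and *Gad2* and is packed into synaptic vesicles by the transporter encoded by *Slc32a1*. In the cortex and hippocampus, interneurons from the medial ganglionic eminence depend on the transcription factor Lhx6 and mostly make the neuropeptide somatostatin (*Sst*) or the calcium buffer parvalbumin (*Pvalb*), while those from the caudal eminence often make vasoactive intestinal peptide (*Vip*), the secreted glycoprotein reelin (*Reln*) or the calcium buffer calretinin (*Calb2*). Neuropeptide Y (*Npy*) marks several of these classes. None of these genes is restricted to interneurons: striatal projection neurons make GABA too, and in the cerebellum Purkinje cells hold *Gad1* and *Pvalb* mRNA and granule cells hold *Reln* and *Calb2* mRNA. In bulk RNA, fewer cells of a type and less mRNA per cell cannot be told apart.

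RefSeq promoter windows on GRCm38.p6 were matched for 9 of the 10 genes, in 12 windows. The stretches below are from *Sst* and *Vip*, the 2 genes that differed between genotypes, and the capitals mark TGACGTC, the core of the cAMP response element, on either strand. In *Sst* the matches on the 2 strands overlap into an 8-base palindrome. The *Sst* stretch is at chr16:23890874-23890903 on the minus strand, its capitals 48 to 41 bases before the RefSeq start, within the first exon of the longer GENCODE M21 model. The *Vip* stretch is at chr10:5639128-5639157 on the plus strand, its capitals 79 to 73 bases before the start.
Sst: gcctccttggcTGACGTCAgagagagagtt
Vip: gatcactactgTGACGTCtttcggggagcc
Of the 32851 windows in the table, 2.78% held the motif in the 250 bases before the start. Of the 12 windows of members 2 held it, those of *Sst* and *Vip*, which are 2 of the 9 members with a window. Whether the motif bears on the levels of these genes was not tested.

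Totals ran from 10609896 to 29942380 counts per library, with a median of 21049839. *Tpp1* was 42.1 to 111 CPM (the count relative to the library's TMM-scaled total, as edgeR gives it) in the 18 control libraries and 16.1 to 27.8 CPM in the 18 *Tpp1*-/- libraries, and the groups separated in each region at each age. The 2 heterozygous libraries, at 46.6 CPM in F/M and 55.9 CPM in Cb, were the lowest controls of 1 month. Of the markers of the 2 regions, 8 granule cell genes summed to 176 to 228 CPM in F/M and 5100 to 7040 CPM in Cb, and 8 cortical and hippocampal genes to 400 to 532 and 146 to 197 CPM. A gene was called differentially expressed (DEG) by edgeR's quasi-likelihood test when its p, adjusted over all genes tested, was under 0.1 and its fold change reached 1.5.

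Among the 10 genes, the DEGs between *Tpp1*-/- and control mice were *Sst* and *Vip* in Cb at 2 months, both lower in *Tpp1*-/- mice. No member was a DEG in F/M at any age, or in Cb at 1 or 3 months. By edgeR, 0 of the 10 were called in F/M at 1 month, against 0.0112% of all 17916 genes tested, 0 in F/M at 2 months against 0.737% of 17229, and 0 in F/M at 3 months against 0.464% of 17224. In Cb, 0 were called at 1 month against 0.0112% of all genes, 2 at 2 months against 2.05%, and 0 at 3 months against 0.859%. DESeq2 and limma-voom each called the same members. At an unadjusted p under 0.05, edgeR gave *Sst* in Cb at 1 month, *Vip* in F/M at 2 months and *Sst*, *Vip* and *Npy* in Cb at 2 months. These are 1, 1 and 3 of 10 members, where 7.66%, 16.9% and 9.67% of all genes passed. None passed in the other 3 comparisons, against 1.89% and 5.94% of all genes in F/M at 1 and 3 months and 6.49% in Cb at 3 months. The median log2 fold change of the 10 genes lay between -0.11 and 0.12 in the 6 comparisons, and that of all genes between -0.004 and 0.006.

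**Figure D1:**
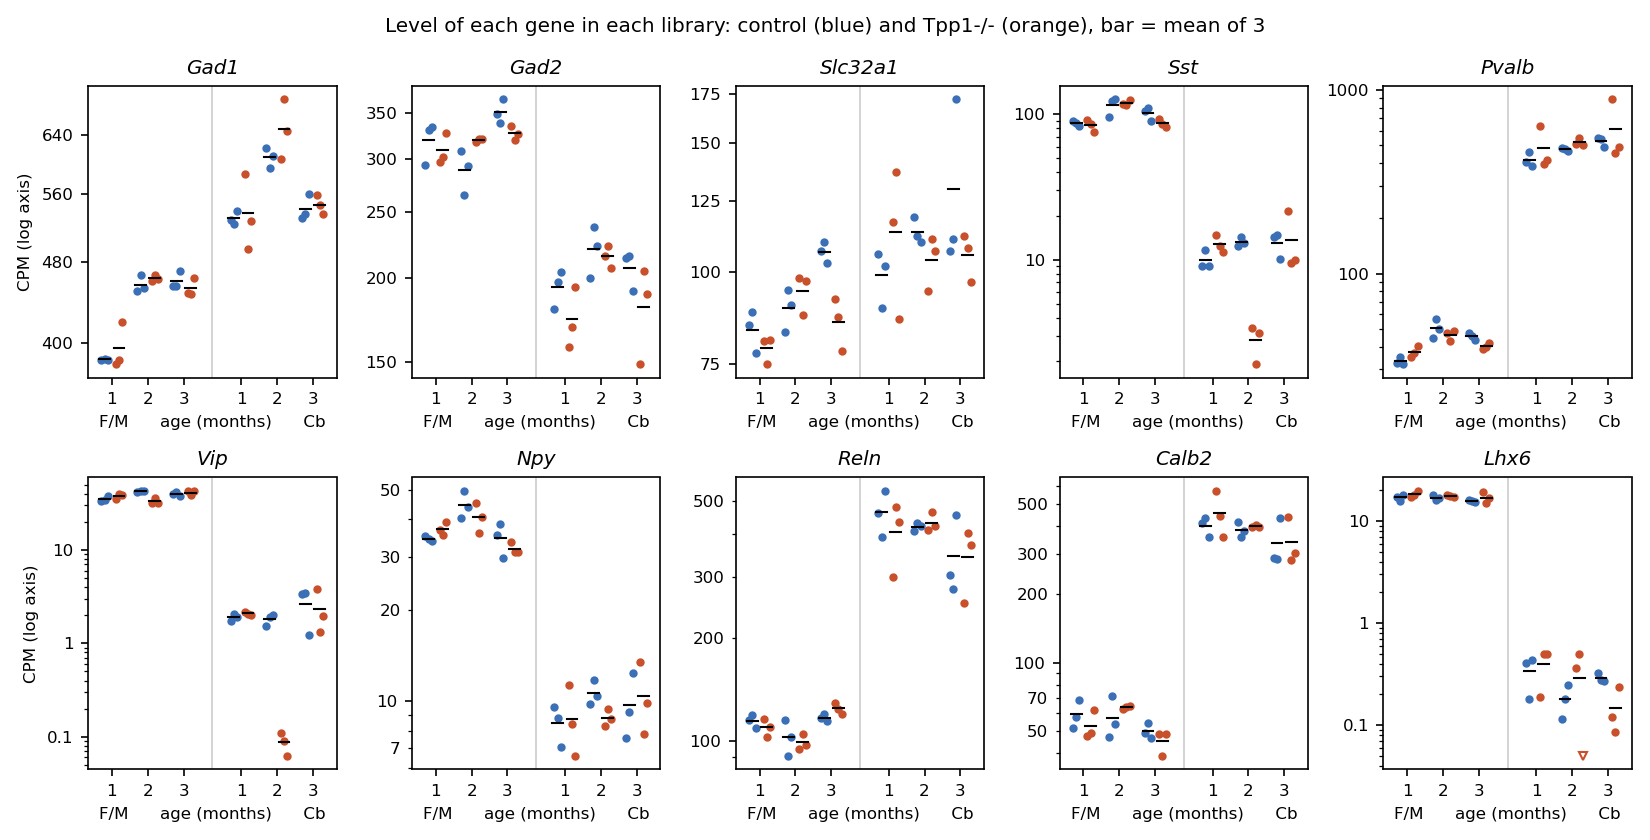
CPM of the 10 genes in each of 36 libraries on log axes, F/M on the left and Cb on the right of each panel, by age in months. Blue points are controls, orange points *Tpp1*-/- libraries, bars the means of 3, and the open triangle a library with 0 counts. In Cb at 2 months the 3 *Tpp1*-/- libraries lie below every other Cb library for *Sst* (1.91 to 3.42 CPM) and *Vip* (0.0625 to 0.109 CPM).

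*Sst* encodes the peptide of dendrite-targeting cortical interneurons and of some cerebellar Golgi cells. In Cb at 2 months it was 12.4, 14.3 and 13.1 CPM in controls and 3.42, 1.91 and 3.12 CPM in *Tpp1*-/- mice, from 216 to 317 and 42 to 94 counts. The groups did not overlap, as they did not for 18.1% of all genes tested in that comparison, and the other 15 Cb libraries ranged from 8.99 to 21.5 CPM. The log2 fold change was -2.23 (SE 0.18, 95% confidence interval -2.60 to -1.86, edgeR adjusted p = 6.87e-08), a 4.70-fold lower level.

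*Vip* encodes the peptide of interneurons that inhibit other interneurons. In Cb at 2 months the controls had 27, 43 and 40 counts (1.55, 1.94 and 2.00 CPM) and the *Tpp1*-/- mice had 3, 2 and 1 counts (0.109, 0.0908 and 0.0625 CPM). The *Tpp1*-/- libraries were thus at or under the 3 counts taken as the limit of detection, while the other 15 Cb libraries had 1.23 to 3.79 CPM. Summed over the groups, 110 counts in controls stood against 6, a ratio of 20.2 after scaling, with an exact 95% interval of 8.98 to 56.2 that covers counting error only. The fitted log2 fold change was -4.24 (SE 0.48, edgeR adjusted p = 6.56e-08), and its size depends on the prior count.

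In F/M at 2 months *Sst* was 95.9, 123 and 127 CPM in controls and 118, 116 and 126 CPM in *Tpp1*-/- mice, so that the groups overlapped. The log2 fold change there was 0.05 (SE 0.10, edgeR adjusted p = 0.835). *Vip* was 41.7, 43.1 and 42.6 CPM in F/M controls and 31.5, 36.3 and 32.2 CPM in *Tpp1*-/- F/M, with no overlap. Its log2 fold change was -0.35 (SE 0.08, 95% confidence interval -0.51 to -0.19, edgeR adjusted p = 0.0405), a fold of 1.27 that is under the minimum for a DEG. Without the fold minimum, 1 member passed in that comparison, against 3.17% of all genes. The difference between the regions in the knockout effect at 2 months passed for *Sst*, at -2.29 (SE 0.20, edgeR adjusted p = 8.57e-07), and for *Vip*, at -3.89 (SE 0.48, edgeR adjusted p = 8.57e-07), on the log2 scale as Cb minus F/M. These were 2 of 10 members against 2.97% of all genes tested. This fit did not pair the libraries of the 2 regions by replicate number.

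Neither gene was a DEG in Cb at the other 2 ages. At 1 month Cb *Sst* was 9.12, 11.7 and 8.99 CPM in controls and 14.7, 12.5 and 11.3 CPM in *Tpp1*-/- mice (log2 fold change 0.38, SE 0.13, edgeR adjusted p = 0.630), and at 3 months 14.3, 14.9 and 10.1 against 21.5, 9.48 and 10 CPM. Cb *Vip* was 1.74, 2.07 and 1.91 against 2.18, 2.08 and 2.03 CPM at 1 month, and 3.34, 3.44 and 1.23 against 3.79, 1.31 and 1.97 CPM at 3 months. Between 2 and 3 months the Cb knockout effect differed by 2.31 on the log2 scale for *Sst* (SE 0.32, edgeR adjusted p = 1.76e-05) and by 4.08 for *Vip* (SE 0.81, edgeR adjusted p = 5.45e-05). They were 2 of 10 members, against 1.44% of 18322 genes in the model of all 36 libraries. Age cannot be told apart from the annotation and strand setting of the counts, which differed between ages, although each effect is taken within 1 age. Sex differed as well, since the groups of 2 months were all male and those of 3 months each held 1 female.

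Other genes moved in the same 3 Cb libraries. Of 14 genes that mark midbrain and thalamus, 9 fell in *Tpp1*-/- Cb at 2 months and none rose, with a median log2 fold change of -1.91 against 0.0 over all genes. They summed to 78.4 to 89.7 CPM in the *Tpp1*-/- libraries, 178 to 231 CPM in the controls of that age and at least 149 CPM in the other 15 Cb libraries. *Tcf7l2*, a transcription factor of thalamic neurons, was 35.0 ± 2.99 CPM (SD, n = 3) in controls and 4.45 ± 0.788 CPM in *Tpp1*-/- Cb. *Gata3*, a factor of midbrain GABA neurons, had 17 to 37 counts in controls and 0 in each *Tpp1*-/- library. *Gata2*, of the same list, had 73 to 106 counts in controls and 60 to 99 in *Tpp1*-/- Cb (log2 fold change -0.15, edgeR adjusted p = 0.884). *Lef1*, *Gbx2*, *Ntng1* and *Rgs16* of the list were not DEGs either. *Drd2*, a dopamine receptor of the striatal list, fell by 2.80 on the log2 scale, and it was 1 of 8 genes of that list that did. The other dopamine receptor of the list, *Drd1*, had 8 to 13 counts in controls and 3 to 10 in *Tpp1*-/- Cb (log2 fold change -0.69, edgeR adjusted p = 0.614). *Cdhr1*, of mitral and tufted cells of the olfactory bulb, fell by 2.71. It was 1 of 2 genes tested of the 3 in the olfactory bulb list. The other, *Doc2g*, did not fall (log2 fold change 0.17, edgeR adjusted p = 0.887). In the same comparison no gene of the Purkinje, granule, unipolar brush, cerebellar interneuron, cortical, hypothalamic, microglial, astrocyte, oligodendrocyte or pan-neuronal lists was a DEG, and none of the 6 hindbrain genes passed the filter. Of 9 choroid plexus genes 4 rose, and the list summed to 981 to 1280 CPM in controls and 1590 to 1780 CPM in *Tpp1*-/- Cb. The part of these genes' cells in the result for *Sst* and *Vip* was not tested. With the mean level of the midbrain and thalamus list as a covariate, the log2 fold change was -1.65 for *Sst* (edgeR adjusted p = 0.470) and -3.51 for *Vip* (edgeR adjusted p = 0.397), and 22 genes in all passed. The list separates the 2 groups of libraries completely, so its level and the genotype cannot be told apart in Cb at 2 months.

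**Figure D2:**
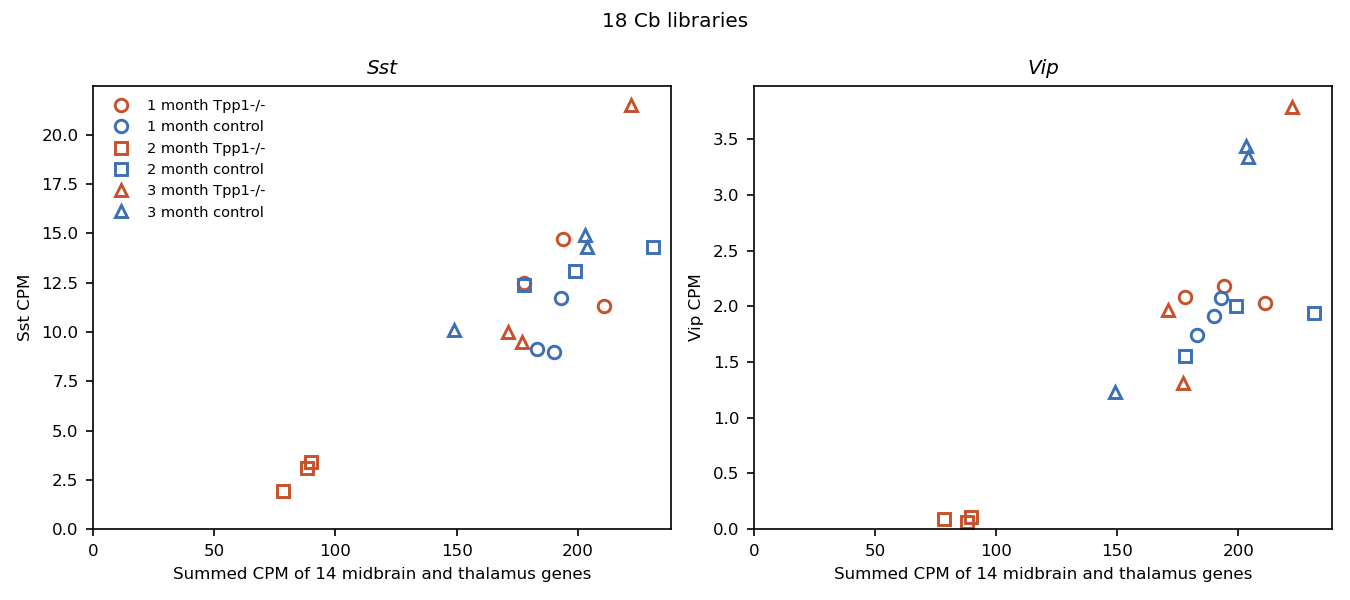
*Sst* (left) and *Vip* (right) in CPM against the summed CPM of 14 midbrain and thalamus genes in 18 Cb libraries, with circles for 1 month, squares for 2 months and triangles for 3 months. The 3 *Tpp1*-/- libraries of 2 months lie at 78.4 to 89.7 CPM of the list, and the other 15 at 149 CPM or above.

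The genes of GABA synthesis and vesicular transport were not DEGs in any of the 6 knockout comparisons. *Gad1* had the narrowest error: its log2 fold change lay between -0.03 and 0.09, and the 95% intervals of the 6 comparisons together spanned -0.18 to 0.22. At 2 months, Cb *Gad1* was 621, 594 and 611 CPM in controls and 606, 694 and 646 CPM in *Tpp1*-/- mice, in the same libraries in which *Sst* and *Vip* were low. Cb *Gad2* was 200, 238 and 223 against 215, 223 and 207 CPM, and Cb *Slc32a1* 119, 112 and 110 against 94.3, 111 and 107 CPM. All 3 pairs of groups overlapped.

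In F/M, *Gad2* at 2 months was 308, 265 and 292 CPM in controls and 317, 321 and 321 CPM in *Tpp1*-/- mice, without overlap (log2 fold change 0.15, SE 0.07, edgeR adjusted p = 0.306). At 3 months it was 349, 339 and 367 against 335, 319 and 326 CPM, again without overlap but in the opposite order (log2 fold change -0.11, SE 0.11). *Slc32a1* in F/M at 3 months was 107, 110 and 103 CPM in controls and 92.1, 87.0 and 78.1 CPM in *Tpp1*-/- mice. Those groups did not overlap either, and the log2 fold change was -0.31 (SE 0.15, 95% confidence interval -0.64 to 0.01, edgeR adjusted p = 0.848). Groups that did not overlap were common among all genes, at 14.8%, 18.3% and 24.1% in F/M at 1, 2 and 3 months, against 1, 2 and 4 of the 10 members.

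*Pvalb* and *Reln* completed the 4 members of 3-month F/M without overlap. *Pvalb* was 47.4, 45.9 and 43.2 CPM in controls and 38.8, 39.8 and 41.6 CPM in *Tpp1*-/- mice (log2 fold change -0.18, SE 0.19), and *Reln* was 117, 120 and 114 against 129, 124 and 120 CPM (0.09, SE 0.18), where the highest control and the lowest *Tpp1*-/- library differ only beyond the digits shown. Neither passed the test. In Cb, *Pvalb* varied among *Tpp1*-/- mice. The *Tpp1*-/- library with replicate number 1 had 637 CPM at 1 month, where the other 2 had 396 and 417, and 891 CPM at 3 months, where the other 2 had 456 and 490. At 2 months the Cb groups did not overlap for *Pvalb*, at 482, 478 and 467 CPM in controls and 511, 550 and 500 CPM in *Tpp1*-/- mice, with a log2 fold change of 0.13 (SE 0.07, edgeR adjusted p = 0.653).

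*Npy* in Cb at 2 months was 9.83, 11.8 and 10.4 CPM in controls and 8.26, 9.45 and 8.75 CPM in *Tpp1*-/- mice. The groups did not overlap, but the log2 fold change of -0.28 (SE 0.12) did not pass (edgeR adjusted p = 0.393). In F/M at 1 month it was the member without overlap, at 35.3, 34.4 and 33.9 CPM in controls and 36.9, 35.5 and 39.1 CPM in *Tpp1*-/- mice (log2 fold change 0.10, SE 0.14). In all, *Sst*, *Vip*, *Npy* and *Pvalb*, 4 of the 10 members, were without overlap in Cb at 2 months, against 18.1% of all genes. In Cb at 1 month no member was, against 7.97% of all genes, and at 3 months *Lhx6* was, against 8.67%.

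*Reln* and *Calb2* in Cb, which are largely granule cell genes there, showed more spread within groups than between them at 3 months. Cb *Reln* was 304, 277 and 455 CPM in controls and 252, 404 and 373 CPM in *Tpp1*-/- mice at 3 months. Cb *Calb2* was 288, 287 and 432 against 437, 282 and 303 CPM at that age. The control with replicate number 3 and the *Tpp1*-/- mouse with replicate number 1 were the high *Calb2* libraries. For *Reln* the same control was the highest and the same *Tpp1*-/- mouse the lowest, and the control also had the highest *Slc32a1*, 172 CPM against 107 and 111 CPM. At 2 months, where the spread was smaller, *Reln* was 408, 430 and 422 against 411, 464 and 422 CPM, and *Calb2* 418, 358 and 381 against 395, 404 and 396 CPM. The 95% intervals of the log2 fold change in Cb at 2 months ran from -0.12 to 0.20 for *Reln* and from -0.16 to 0.25 for *Calb2*.

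*Lhx6*, the factor of medial eminence interneurons, was close to the limit of detection in Cb, with 0 to 13 counts per library. In F/M it had 180 to 421 counts and ranged from 14.9 to 19.8 CPM over 18 libraries. Its F/M log2 fold changes were 0.10, 0.06 and 0.12 at 1, 2 and 3 months, with standard errors of 0.15, 0.14 and 0.13. In Cb at 3 months the counts were 7, 6 and 6 in controls and 3, 2 and 5 in *Tpp1*-/- mice, a difference that was not detectable at this depth (edgeR adjusted p = 0.789).

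**Figure D3:**
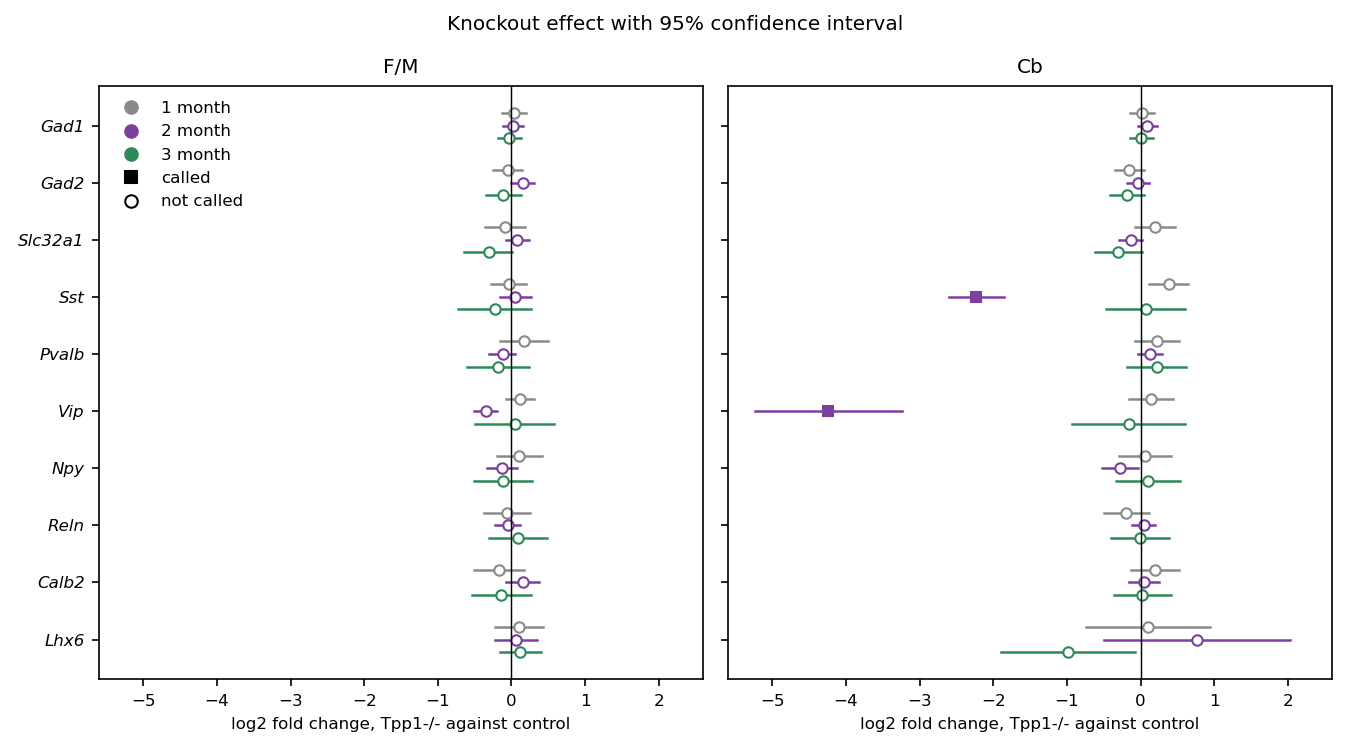
Log2 fold change of *Tpp1*-/- against control with its 95% confidence interval for the 10 genes, F/M on the left and Cb on the right, coloured by age. Filled squares are DEGs and open circles are not. *Vip* at -4.24 and *Sst* at -2.23 in Cb at 2 months are the 2 squares.

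The difference between the regions in the knockout effect was called for no member at 1 month (0.0% of all genes, 347 of which had an unadjusted p under 0.05) or at 3 months (0.00581%). At an unadjusted p under 0.05, 1 of 10 members passed at each of these ages, *Sst* at 1 month, against 1.94% of all genes, and *Lhx6* at 3 months, against 3.51%. The Cb counts of *Lhx6* at 3 months were 2 to 7 per library. DESeq2 and limma-voom called no member in the difference between the regions at 1 or 3 months either. The change of the knockout effect from 1 to 3 months was called for no member in F/M (0.153% of all genes) or Cb (0.458%), and that from 2 to 3 months for none in F/M (0.393%). At an unadjusted p under 0.05 the Cb change from 1 to 3 months gave *Slc32a1*, against 7.91% of all genes, and the F/M change from 2 to 3 months gave *Slc32a1*, against 8.12%. The F/M change from 1 to 3 months gave none, against 5.41%, and DESeq2 and limma-voom called none in these 3. Without the *Tpp1*-/- Cb library with replicate number 1 of 3 months, the 1 to 3 month change in Cb passed for *Sst* (-0.81, edgeR adjusted p = 0.0404).

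Companion lists gave the wider set of inhibitory neuron genes. Of 7 genes of GABA uptake, breakdown and chloride balance, 1 fell in Cb at 2 months and none was a DEG in the other 5 comparisons. It was *Slc6a11*, a GABA transporter mostly of astrocytes, at 144, 198 and 170 CPM in controls and 92.1, 66.3 and 77.3 CPM in *Tpp1*-/- Cb (log2 fold change -1.12, SE 0.11, edgeR adjusted p = 4.76e-06). In F/M at 2 months it was 267, 259 and 259 CPM in controls and 422, 335 and 384 CPM in *Tpp1*-/- mice, a log2 fold change of 0.54 (SE 0.11, edgeR adjusted p = 0.0292) that is under the fold minimum. In these libraries the astrocyte list summed to 3780 to 4960 CPM in controls and 5140 to 6500 CPM in *Tpp1*-/- mice. All 7 of its genes had a positive log2 fold change, and 0 were DEGs. The part of this list in the value of *Slc6a11* was not tested. Of 15 interneuron transcription factors, 1 fell in Cb at 2 months, *Npas1*, at 7 to 17 counts in controls and 1 to 5 in *Tpp1*-/- mice, and none was a DEG elsewhere.

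Of 18 other interneuron class genes, 4 fell and 1 rose in Cb at 2 months, where 2.05% of all genes were called. These are the *Tpp1*-/- libraries in which the midbrain and thalamus list summed to 78.4 to 89.7 CPM, against 178 to 231 CPM in controls, and its part in the values of the companion genes was not tested. *Tac1*, the substance P precursor, was 6.5, 8.73 and 8.54 CPM in controls and 1.93, 0.136 and 1.00 CPM in *Tpp1*-/- mice (log2 fold change -2.86, SE 0.37, edgeR adjusted p = 1.27e-05). *Kcnc2*, a potassium channel of fast-spiking neurons, was 27.0, 32.7 and 27.6 against 14.2, 7.77 and 10.2 CPM (log2 fold change -1.42, SE 0.14). *Pnoc*, the nociceptin precursor, was 2.88, 3.07 and 3.59 against 1.78, 1.23 and 2.00 CPM, and *Crhbp*, which binds corticotropin-releasing hormone, had 12 to 19 counts against 0 to 11. The groups separated for these 4 genes. Each of them was lower in Cb than in F/M in controls at all 3 ages, as was *Lamp5*, the gene of the list that rose.

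*Lamp5*, a marker of neurogliaform interneurons, rose in Cb at 2 months, from 2.65, 3.07 and 1.80 CPM to 9.57, 2.04 and 6.06 CPM, with overlap (log2 fold change 1.27, SE 0.37, edgeR adjusted p = 0.0817). In Cb at 3 months it fell, from 10.4, 12 and 4.96 CPM to 3.63, 2.29 and 0.986 CPM (log2 fold change -1.96, SE 0.35, edgeR adjusted p = 0.0138). It was the single gene of these 3 lists that was a DEG at another age or in another region. At 1 month 1 *Tpp1*-/- Cb library had 11.7 CPM of *Lamp5* and the other 2 had 1.46 and 2.14 CPM.

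Of 9 genes of cerebellar interneurons, 8 were tested. None was a DEG in Cb at 2 months, and *Grm2*, the glutamate receptor of Golgi cells, fell in Cb at 3 months, from 14.1, 15.5 and 21.6 CPM to 9.33, 9.65 and 9.44 CPM (log2 fold change -0.85, SE 0.15, edgeR adjusted p = 0.0159). In F/M at 2 months 2 rose, the glycine transporter *Slc6a5* (0.518 ± 0.291 to 2.58 ± 1.31 CPM, SD, n = 3) and the transcription factor *Tfap2b* (3.06 ± 0.675 to 5.01 ± 1.08 CPM). Their edgeR adjusted p were 0.0145 and 0.0816. The *Tpp1*-/- libraries had 1.49 to 4.04 and 4.28 to 6.25 CPM. Single F/M controls of other ages reached 3.75 CPM of *Slc6a5* (3 months) and 4.41 CPM of *Tfap2b* (1 month). In F/M at 2 months *Ppp1r17* of the Purkinje list and *Avp* of the hypothalamic list also rose (log2 fold change 1.36 and 0.87). In the same F/M libraries the midbrain and thalamus list summed to 291 to 307 CPM against 229 to 262 CPM in controls, with 1 of 14 genes called, *Sox14*, which rose. With the mean level of that list as a covariate, the log2 fold change of *Vip* in F/M was -0.33 (edgeR adjusted p = 0.483), against -0.35 without it (edgeR adjusted p = 0.0405). In the same fit *Sst* moved from 0.05 to -0.76, *Npy* from -0.13 to -0.78 and *Pvalb* from -0.12 to -0.77 on the log2 scale, and these 3 were called (edgeR adjusted p = 0.0923, 0.0904 and 0.0686). The list also separates the F/M groups of 2 months completely, so its level and the genotype cannot be told apart there.

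The regions differed far more than the genotypes. In controls, 8 of the 10 genes were called between Cb and F/M at 1 month, against 36.9% of all genes, 7 at 2 months against 39.3%, and 8 at 3 months against 37.7%. *Pvalb*, *Calb2* and *Reln* were higher in Cb, and *Sst*, *Vip*, *Npy* and *Lhx6* were lower, at each age. *Gad2* was lower in Cb and passed at 1 and 3 months, where its log2 difference was -0.72 and -0.77, but at 2 months, at -0.39, it was under the fold minimum. The control groups of the regions did not overlap for all 10 genes at 1 and 2 months and for 9 at 3 months, against 65.9%, 67.6% and 63.6% of all genes.

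*Pvalb* was 371 to 524 CPM per kb of exon in 9 control Cb libraries and 30.7 to 54.3 CPM per kb in 9 control F/M libraries. Its log2 difference was 3.65, 3.24 and 3.53 at 1, 2 and 3 months, with standard errors of 0.15, 0.08 and 0.19. *Calb2* differed by 2.76, 2.75 and 2.75 and *Reln* by 2.02, 2.03 and 1.57. *Gad1* was higher in Cb by 0.46, 0.42 and 0.23, with edgeR adjusted p of 0.000135, 8.17e-06 and 0.017, all under the fold minimum. *Slc32a1* differed by 0.25, 0.35 and 0.29 on the log2 scale, with edgeR adjusted p of 0.125, 0.000466 and 0.126, also under the fold minimum.

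Among genes with less mRNA in Cb, *Npy* differed by -2.03, -2.06 and -1.83 and *Sst* by -3.13, -3.11 and -2.96 on the log2 scale. *Vip* counts in control F/M stood to those in control Cb at a scaled ratio of 18.5 at 1 month, 23.0 at 2 months and 14.9 at 3 months. For *Lhx6*, with 27, 11 and 19 counts summed over the Cb controls, the ratio was 48.4 (exact 95% interval 33.1 to 73.8), 91.4 (50.9 to 184) and 53.7 (34.2 to 89.6). These intervals cover counting error only.

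**Figure D4:**
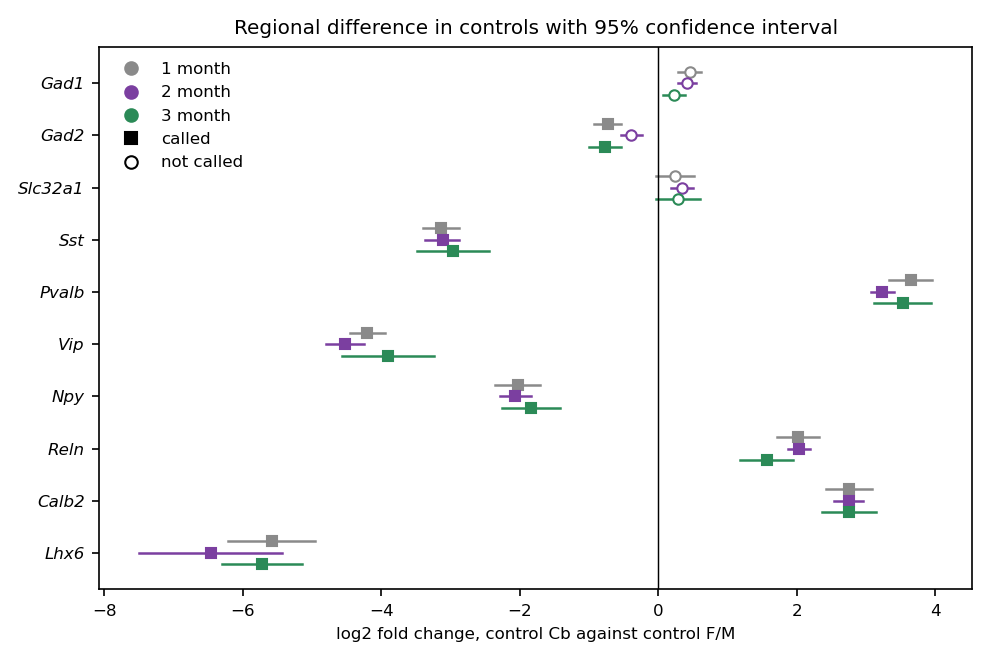
Log2 fold change of control Cb against control F/M with its 95% confidence interval for the 10 genes, coloured by age. Filled squares passed the test and the fold minimum. *Pvalb* (3.24 to 3.65), *Calb2* and *Reln* lie to the right, and *Lhx6* (-6.46 to -5.58), *Vip*, *Sst* and *Npy* to the left.

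Per kb of exon, the median of 9 control F/M libraries put *Sst* first, at 145 CPM per kb, followed by *Npy* at 62.9, *Gad1* at 59.3, *Gad2* at 56.4, *Pvalb* at 42.6, *Slc32a1* at 32.3, *Calb2* at 30.8, *Vip* at 11.8, *Reln* at 4.83 and *Lhx6* at 3.36 CPM per kb. The exon length of *Sst* was 599 bases in the annotation of 2 months and 721 bases in the other 2, which raises its level per kb at 2 months. Within each age *Sst* was clear of *Npy*, and *Calb2*, *Vip*, *Reln* and *Lhx6* were clear of each other. From *Npy* to *Calb2*, each pair of neighbours failed to separate in this order at 1 or 2 of the 3 ages.

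In Cb controls the order was *Pvalb* at 459, *Calb2* at 218, *Gad1* at 70.6, *Slc32a1* at 39.2, *Gad2* at 34.8, *Sst* at 19.8, *Reln* at 17.8, *Npy* at 17.0, *Vip* at 0.571 and *Lhx6* at 0.0569 CPM per kb. *Pvalb*, *Calb2* and *Gad1* each separated from the next gene at all 3 ages, as did *Npy* from *Vip* and *Vip* from *Lhx6*. *Slc32a1* and *Gad2* overlapped at 2 ages, and *Reln* and *Npy* at all 3. *Sst* and *Reln* overlapped at 3 months and separated at the other 2 ages in opposite orders, with *Reln* higher at 1 month (16.5 to 22.5 against 12.5 to 16.2 CPM per kb) and *Sst* higher at 2 months (20.7 to 23.9 against 17.2 to 18.1 CPM per kb). The exon length of *Sst* was 599 bases at 2 months and 721 at 1 month, which raises its level per kb at 2 months. The order was not compared at equal lengths.

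The genes most alike to 9 of the members were found over the 12 group means on the log2 scale, each gene centred on its own mean, by the root mean square difference among 18322 genes. Each member's 12 means hold the region difference, which weighs most in this measure for members that differ widely between the regions. It weighs less for a member such as *Slc32a1*, whose region difference in controls was 0.25, 0.35 and 0.29 on the log2 scale. *Sst* was closest to *Drd2*, at 0.189, and to *Lrfn2*, at 0.195, where *Sst* itself had an SD of 1.77 over the groups. *Vip* was closest to *Nrgn*, at 0.246, and to *Nr2e1*, at 0.309. *Npy* was closest to *Crip2* and *Rasd1*, at 0.0963 and 0.115. Of the genes higher in Cb, *Pvalb* was closest to *Defb42* and *Kank2* (0.122 and 0.151), *Reln* to *Sphkap* and *Zfpm2* (0.054 and 0.101) and *Calb2* to *Afap1l2* and *Tspan9* (0.105 and 0.125). *Gad1* was closest to *Ezh1* and *Cipc* (0.0355 and 0.055), *Gad2* to *Gnal* and *Clstn2* (0.0572 and 0.0614) and *Slc32a1* to *Nop53* and *Paqr4* (0.0644 and 0.0738), whose own SD over the groups were 0.22, 0.36 and 0.197 for the 3 members.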

How the data were processed

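The authors mapped single-end reads to mm10 with STAR 2.5.2b and deposited featureCounts counts per gene, which are whole numbers without normalization. Per the file headers, these used featureCounts 1.6.3 with GENCODE M21 and strand setting 1 at 1 month, 1.6.2 with M16 and setting 2 at 2 months, and 1.6.2 with M18 and setting 1 at 3 months. Genes antisense to or overlapping the members had few counts.

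Counts were fitted with edgeR 4.0.16 in R 4.3.3 (TMM, filterByExpr, quasi-likelihood F test, two-sided, Benjamini-Hochberg over all genes tested) in 4 groups per age, and over all 36 libraries for changes with age. A DEG had an adjusted p under 0.1 and a fold of at least 1.5, and differences between regions' or ages' effects had no fold minimum. The fit was tested on simulated counts. DESeq2 1.42.0 and limma 3.58.1 (voom) were alternatives, besides RLE factors, no filter, a replicate block, only the libraries compared, a midbrain and thalamus covariate and each library left out in turn. Tables and plots used Python 3.11.15, pandas 2.3.3, scipy 1.17.1 and matplotlib 3.10.9. Named genes were, by rule, the 10 members, the 2 genes most alike to each, DEGs of the companion lists and *Tpp1*. The genes most alike to *Lhx6* are not reported here. Marker genes were named after their values were seen. Members and lists were chosen with earlier results of these data known. At 1 month, same-numbered control libraries of the 2 regions deviated together (correlations of 0.198, 0.124 and 0.131 over genes), which links them for the regional comparison, and a replicate block left its 8 calls at 8.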

Additional observations from a re-analysis of the deposited data

Results flagged for a closer look

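In Cb at 2 months the knockout effect differed from that in F/M by -2.29 on the log2 scale for *Sst* and by -3.89 for *Vip*. Both values passed the region by genotype test (edgeR adjusted p = 8.57e-07 for each gene). The Cb knockout effect also differed between 2 and 3 months, by 2.31 for *Sst* and 4.08 for *Vip*, in the model of all 36 libraries (edgeR adjusted p = 1.76e-05 and 5.45e-05). All 3 *Tpp1*-/- Cb libraries of 2 months were below the 15 other Cb libraries for both genes. The midbrain and thalamus list was also lowest in these 3 libraries, at 78.4 to 89.7 summed CPM, and its part in the 4 values was not tested.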

How the results depend on the processing

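The DEGs *Sst* and *Vip* in Cb at 2 months passed in 11 of 11 edgeR and DESeq2 alternatives without the covariate. Their log2 fold changes there were -2.45 to -2.01 and -4.44 to -4.11, with edgeR or DESeq2 adjusted p up to 1.73e-05 and 2.12e-05. Both genes were also called by limma-voom. With the midbrain and thalamus covariate, 0 members were called in Cb at 2 months and 3 in F/M at 2 months, *Npy*, *Pvalb* and *Sst*, at -0.78, -0.77 and -0.76 (edgeR adjusted p = 0.0904, 0.0686 and 0.0923), against -0.13, -0.12 and 0.05 without it, in a fit in which 1650 genes passed. The list separates the groups completely in both regions at 2 months, so its level and the genotype cannot be told apart in these fits. With no fold-change minimum, 1 member passed in F/M at 2 months, *Vip*. The change from 1 to 3 months in Cb was called for 1 member, *Slc32a1*, with no filter on low counts (-0.49, edgeR adjusted p = 0.0838), and for 0 to 1 member when each library was left out in turn. It was *Slc32a1* without the *Tpp1*-/- library with replicate number 3 of 1 month (-0.67, edgeR adjusted p = 0.0934) and *Sst* without that with number 1 of 3 months. The region difference at 2 months was called for 2 to 3 members when each library was left out, the third being *Pvalb* (0.34, edgeR adjusted p = 0.0792) without the F/M control with number 1. No other count of members changed by over 1.5 times, and no called member changed sign.

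With a replicate block the counts were the same, 2 members in Cb at 2 months and 0 in the other 5 knockout comparisons. Correlations of the 36 pairs of same-numbered libraries ran from -0.085 to 0.229, 11 were over 0.1, and in 21 pairs the same-numbered partner correlated best. The F/M and Cb libraries of *Tpp1*-/- mice did so for each number at 1 month (0.16, 0.107 and 0.095) and at 2 months (0.099, 0.094 and 0.058). The main fits did not pair libraries by number. The difference between the regions at 2 months passed for *Sst* and *Vip* in 16 of 16 alternatives by edgeR or DESeq2. Depth limits *Lhx6* in Cb, with 0 to 13 counts per library, and *Vip* in *Tpp1*-/- Cb at 2 months, with 1 to 3.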

Other observations

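Microglial genes rose in Cb at 3 months, where no member was a DEG. Of 10 genes 6 rose, among them *C1qa*, *C1qb* and *C1qc*, the chains of complement C1q, at log2 fold changes of 1.96, 1.62 and 1.76, and *Trem2*, a microglial lipid receptor, at 1.82 (edgeR adjusted p = 0.000381). The list summed to 301 to 463 CPM in *Tpp1*-/- Cb and 152 to 185 CPM in controls. In F/M at 3 months none of the 10 was a DEG, and the list summed to 544 to 602 against 434 to 465 CPM.

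Choroid plexus genes rose in F/M at 2 months in 5 of 9 cases, *Kl*, *Aqp1*, *Slc4a5*, *Prlr* and *Clic6*, where 0.737% of all genes were called. The list summed to 245 to 630 CPM in controls and 538 to 724 CPM in *Tpp1*-/- F/M, with overlap. *Prlr*, the prolactin receptor, was 9.02 ± 2.23 CPM in controls and 19.8 ± 3.31 CPM in *Tpp1*-/- F/M (SD, n = 3, edgeR adjusted p = 0.00202).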
